A study of Mus musculus with 8 samples.

Results

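The transcription factor p53 (gene Trp53), its regulators and its classical target genes were followed in RNA labelled as mouse liver after tranilast treatment. The group consists of 32 named genes among the 22063 genes of the deposited table, and each was found by its gene symbol. They are Trp53 itself, 5 genes that feed back on p53, 7 genes of cell cycle arrest and growth restraint, 11 genes of cell death, 5 genes of DNA repair and nucleotide supply, and 3 further targets. The list was selected on known p53 biology and on the tranilast against control differences of these same libraries, which were known from an earlier analysis, so the tranilast values of its members are given as a description, without p-values. The series holds 4 control libraries and 4 tranilast libraries, all labelled as wild-type liver. The series' design text places both groups on a high-fat and high-cholesterol (HFHC) diet, while the sample labels name no diet. The published methods describe male C57BL/6J mice and also a control group on normal chow, and they do not say which of their control animals were sequenced. For mice on the HFHC diet, the methods describe tranilast, an anti-allergic drug, as given by mouth during the later part of the feeding. The labels give no strain, age, dose or duration for a library, and the methods do not say which tranilast dose the sequenced mice had received. Nothing states whether each library came from a separate mouse or from pooled mice, and the tests below measure only the spread between these 8 libraries.

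p53 is a transcription factor that is made continuously and destroyed quickly, because the ubiquitin ligase Mdm2 binds it and marks it for degradation. Stress signals such as DNA damage, passed on by the kinases Atm, Atr, Chek1 and Chek2, loosen that hold, so that p53 protein accumulates without a need for more Trp53 mRNA. p53 then activates genes that halt the cell cycle, repair DNA or trigger cell death, and it activates Mdm2 as well, which closes a negative feedback loop.

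Counts assigned to genes summed to 14585143 to 15618789 per control library and 12053036 to 14679384 per tranilast library. Normalisation with the trimmed mean of M-values (TMM) scaled the control libraries by 0.956 to 0.965 and each tranilast library by 1.04. Levels below are in CPM, counts divided by the TMM-scaled library total, unless a sentence says otherwise. The detection limit was set at 3 counts, or 0.196 to 0.240 CPM depending on the library. The marker genes went against the label, since the 8 libraries labelled as liver carried next to no hepatocyte transcripts. The 9 hepatocyte markers together made up at most 0.000123% of counts in a control library and 0.000191% in a tranilast library, and Tat, Ahsg, Cps1 and Serpina1a were at 0 in all 8. The 9 macrophage markers together made up 0.922% to 0.979% of control counts and 0.903% to 0.961% of tranilast counts, and 8 of the 9 had 10 counts or more in each library, whereas the Kupffer cell markers Clec4f, Vsig4 and Timd4 were at 0. The marker sets of T or NK cells, B cells, neutrophils and red blood cells were also nearly absent. So were those of endothelial cells, stellate cells or fibroblasts, and cholangiocytes. The largest share of any of these sets was 7.47e-05% of counts, for endothelial cells in a tranilast library. The levels below therefore cannot be assigned to hepatocytes, and the part of cell composition in the results below was not tested. In bulk RNA, fewer cells of a type and less RNA per cell cannot be told apart.

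Nearly all of the p53 target genes that were detected stood higher in the tranilast group, while Trp53 itself stood slightly lower. Of the 32 genes, 31 had enough counts to be tested, and Perp did not. At an adjusted p under 0.05 in edgeR's quasi-likelihood test over 10770 genes, 27 of the 31 were higher with tranilast, 1 was lower, and 3 (Sesn1, Aen and Dyrk3) did not pass. Across all tested genes 57% passed, 28.2% as higher and 28.8% as lower, and since the list was chosen with this contrast known, nothing is read from the difference. The 4 tranilast values lay entirely above the 4 control values for 24 members and entirely below them for 1, where the backgrounds were 24.5% and 25.2%. The median log2 fold change (tranilast over control) was 0.72 over the 31 members and 0.01 over all tested genes. A log2 fold change of at least 1 was reached by 11 members, against 2.1% of all tested genes, or 3.55% counting both directions. A limit of 1.5 was reached by 5, namely Trp53inp1, Phlda3, Eda2r, Bbc3 and Dcxr, against 0.631% of all tested genes, or 1.11% counting both directions. Just inside the limit of 1 stood Ercc5 (1.01) and Btg2 (1.09), and just outside it Mdm2 (0.92) and Zmat3 (0.84). By log2 fold change among the 10770 genes, 6 members stood in the top 100, with Trp53inp1 at rank 1, Phlda3 at 7, Eda2r at 24, Bbc3 at 44, Dcxr at 67 and Tnfrsf10b at 77. Cdkn1a stood at rank 2166, Bax at 3351 and Trp53 at 8099.

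**Figure D1:**
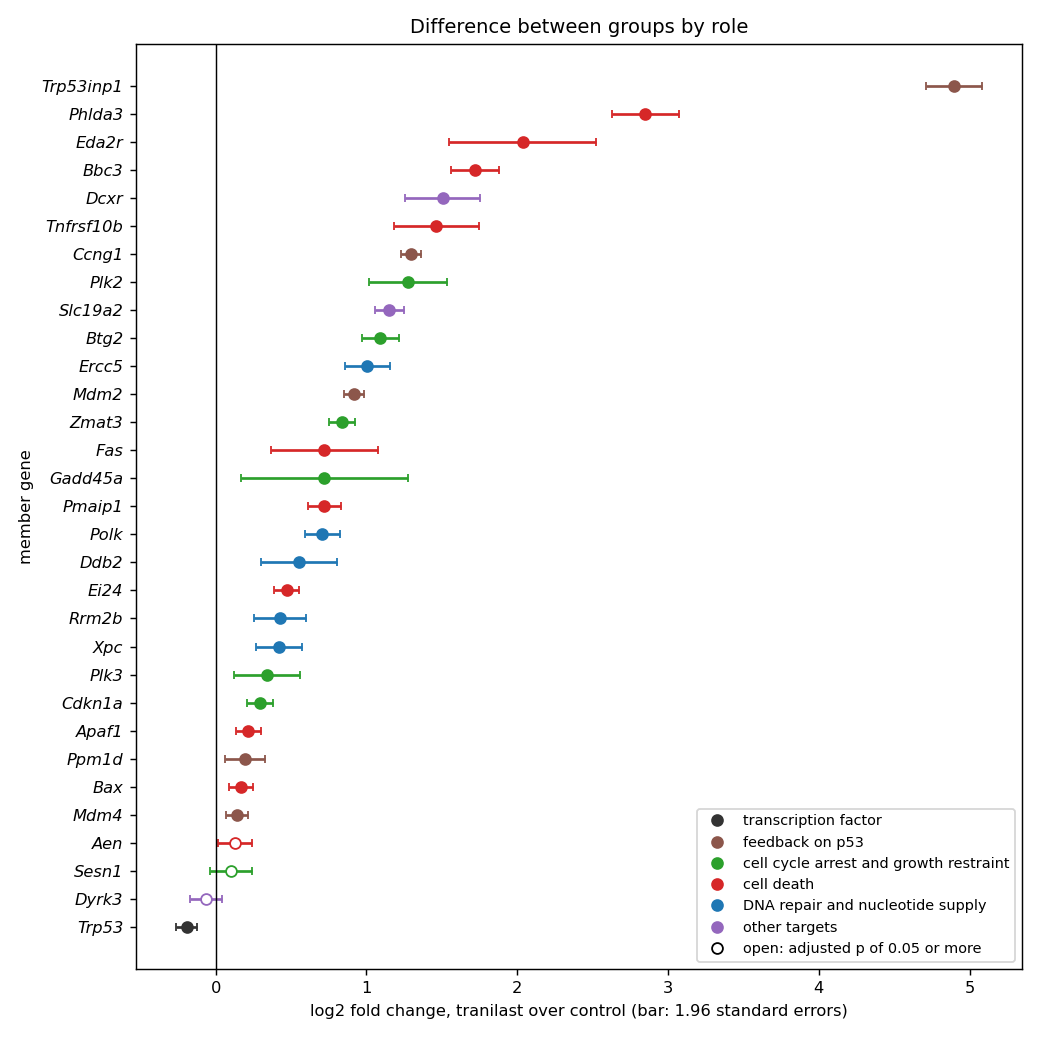
The log2 fold change (tranilast over control) of each of the 31 tested members, coloured by role, with bars of about 2 standard errors to each side and open points for members that did not pass. Trp53inp1 stands apart at 4.90, the 27 tested feedback, arrest, death and repair genes all lie above 0, and Trp53 and Dyrk3 lie below it.

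p53 binds DNA as a tetramer, and its binding site is a pair of half-sites, each 10 bases long. The RefSeq promoter windows (GRCm38.p6, 250 bases before to 50 bases after the start site) were searched on both strands for the p53 half-site consensus, which is its own reverse complement. The consensus searched was RRRCWWGYYY, where R is A or G, W is A or T and Y is C or T. Each base outside it counted as a mismatch. A window was found for 24 of the 32 members; Ddb2, Trp53inp1, Perp, Tnfrsf10b, Zmat3, Pmaip1, Rrm2b and Xpc had none in the table. A half-site without mismatch was present in 11 of the 24 (45.8%), against 9.55% of the 27025 genes in the table. A pair of half-sites with at most 1 mismatch and at most 13 bases between them was present in 4 of the 24 (16.7%), against 1.24% of all genes, and with up to 2 mismatches in 7 (29.2%), against 11.5%. The members were named as p53 targets to begin with, so these shares describe the list and test nothing. Ccng1 is printed with its surroundings because it was the member with a pair, a log2 fold change over 1 and groups that did not overlap. Its site lies at chr11:40755462-40755481, minus strand, and begins at position -195 relative to the start site. The stretch shown covers chr11:40755432-40755511, 5′ to 3′ on the minus strand, and capitals mark the pair of half-sites, which has 1 mismatch.
Ccng1: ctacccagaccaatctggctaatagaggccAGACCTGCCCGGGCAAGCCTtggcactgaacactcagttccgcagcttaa

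Cdkn1a held 2 overlapping pairs of this kind, of which the one with adjacent half-sites is shown. The 3 other members with such a pair, chosen for display after their values were seen, were Cdkn1a (chr17:29090928-29090947, plus strand, starting at -51), Bax (chr7:45467090-45467110, minus strand, starting at -212) and Polk (chr13:96519398-96519418, minus strand, starting at -231). Their pairs are shown 5′ to 3′ on the gene's strand, with half-sites, their 1 mismatch included, in capitals and bases between them in lower case.
Cdkn1a: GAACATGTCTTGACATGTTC
Bax: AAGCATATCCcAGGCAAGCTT
Polk: GAACTAGCCTcAAACTTATTC
Single half-sites stood in the windows of Mdm2 (chr10:117710935-117710944, minus strand) and of Trp53 (chr11:69580284-69580293, plus strand), among others.
Mdm2: GAACTTGCCT
Trp53: GGACTTGCCC
Members with a half-site in this window had the smaller median change. The median log2 fold change was 0.29 (range -0.19 to 1.30) in the 11 members with a half-site and 1.09 (range -0.06 to 2.85) in the 13 without one. Phlda3, Eda2r, Bbc3, Dcxr, Plk2, Btg2, Slc19a2 and Ercc5, each with a log2 fold change over 1, held none in these 300 bases, which says nothing of sites elsewhere in the gene.

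Trp53 mRNA was abundant in both groups and modestly lower with tranilast. Trp53 (ENSMUSG00000059552, chromosome 11, 69580359 to 69591873 on GRCm38) stood at 319.6, 296, 328 and 330.3 CPM in control replicates 1 to 4 and 286, 275, 279 and 275 CPM in tranilast replicates 1 to 4. All 4 tranilast values lay below the lowest control value. The group means fell from 318 ± 15.8 to 279 ± 5.04 CPM (SD, n = 4 each), a log2 fold change of -0.19 (SE 0.0344). The direction held but the call was lost when libraries were scaled by their total alone or when FPKM values were used, each with a log2 fold change of -0.08. Scaling by total alone moved the median of all tested genes from 0.01 to 0.12. A change of scaling shifts Trp53 and that median together, so the distance between them cannot decide which scaling is right.

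Of the 5 genes that feed back on p53, all 5 rose (against 28.2% of all tested genes), with a median log2 fold change of 0.92. The counts by role here and below describe a list chosen with this contrast known, so nothing is read from them. Trp53inp1 (ENSMUSG00000028211, chromosome 4, 11156431 to 11174379) encodes a stress-induced partner of p53 that promotes its phosphorylation. It stood at 2.13, 2.15, 2.81 and 2.65 CPM in control replicates 1 to 4 and 77.4, 65.9, 70.7 and 77.7 CPM in tranilast replicates 1 to 4. Every control library was under 3 CPM and every tranilast library over 60 CPM, a 29.8-fold difference and a log2 fold change of 4.90 (SE 0.0954). Ccng1 (ENSMUSG00000020326, chromosome 11, 40748552 to 40755311), which encodes cyclin G1 and recruits a phosphatase that activates Mdm2, stood at 139, 134, 138 and 141 CPM in control replicates 1 to 4 and 332, 338, 326 and 359.8 CPM in tranilast replicates 1 to 4. Its groups were far apart relative to their spread (138 ± 2.72 to 339 ± 14.9 CPM), with a log2 fold change of 1.30 (SE 0.0350).

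Mdm2 (ENSMUSG00000020184, chromosome 10, 117688875 to 117710758), the ubiquitin ligase of p53, stood at 104, 100.2, 101 and 102 CPM in control replicates 1 to 4 and 190.2, 192, 187 and 199.8 CPM in tranilast replicates 1 to 4. No control library reached the lowest tranilast library, and the means differed 1.89-fold, with a log2 fold change of 0.92 (SE 0.0345). Mdm4, the relative of Mdm2 that masks the activation domain of p53, moved much less. Its level went from 118 ± 2.64 to 129.8 ± 3.72 CPM, a log2 fold change of 0.14 (SE 0.0363), with groups that did not overlap. Ppm1d, a phosphatase that removes activating phosphates from p53 and from Atm, stood at 31.7, 28.7, 34.03 and 33.6 CPM in control replicates 1 to 4 and 38.2, 36.4, 33.2 and 38.2 CPM in tranilast replicates 1 to 4. Here tranilast replicate 3 fell within the control range, the log2 fold change was 0.19 (SE 0.0676), and the call was lost when control replicate 2, or either of tranilast replicates 1 and 4, was left out.

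**Figure D2:**
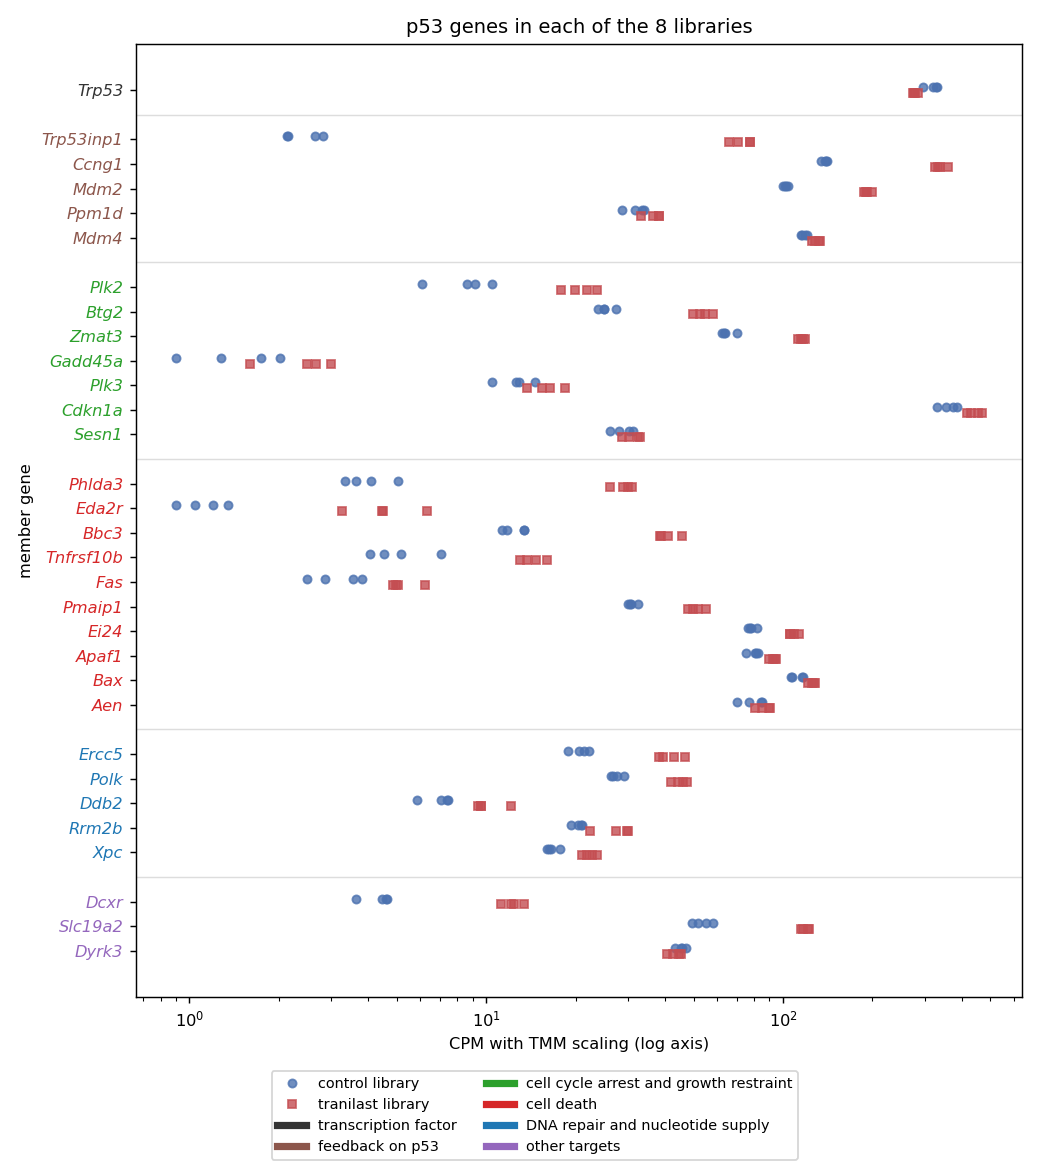
The level of each tested member, in CPM on a log axis, with 1 point per library (circles for control, squares for tranilast) and members in rows by role. The squares of Trp53inp1 lie at 65.9 to 77.7 CPM against circles at 2.13 to 2.81 CPM, while for Ppm1d, Gadd45a, Plk3, Sesn1, Aen and Dyrk3 the points of both groups overlap.

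Of the 7 genes of cell cycle arrest and growth restraint, 6 rose (against 28.2% of all tested genes). Sesn1 did not pass, and the median log2 fold change was 0.72. Plk2, a polo-like kinase induced by stress, stood at 8.61, 9.17, 10.4 and 6.07 CPM in control replicates 1 to 4 and 17.8, 23.6, 19.9 and 21.9 CPM in tranilast replicates 1 to 4. The lowest tranilast value was above the highest control value although the controls spread widely, and the log2 fold change was 1.28 (SE 0.132). Btg2, an antiproliferative cofactor of mRNA deadenylation, stood at 27.3, 25.01, 24.9 and 23.7 CPM in control replicates 1 to 4 and 58.01, 49.8, 52.6 and 54.6 CPM in tranilast replicates 1 to 4, which is a 2.13-fold difference (log2 fold change 1.09, SE 0.0621). Zmat3, a zinc finger protein that binds RNA, went from 64.8 ± 3.57 to 116 ± 2.90 CPM (log2 fold change 0.84, SE 0.0442), again without overlap.

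Cdkn1a (ENSMUSG00000023067, chromosome 17, 29090976 to 29100727) encodes p21, the inhibitor of cyclin-dependent kinases through which p53 halts the cell cycle. It stood at 354, 387, 373 and 329 CPM in control replicates 1 to 4 and 469, 417, 455 and 429 CPM in tranilast replicates 1 to 4. Every tranilast library was above every control library, but the difference was 1.23-fold (log2 fold change 0.29, SE 0.0442), below the median of the members. Of the remaining genes in this group, Plk3 stood at 12.9, 10.5, 12.6 and 14.6 CPM in control replicates 1 to 4 and 13.7, 18.4, 15.4 and 16.4 CPM in tranilast replicates 1 to 4, with overlapping groups and a log2 fold change of 0.34 (SE 0.113). The Plk3 call was lost without control replicate 2 or tranilast replicate 2. Gadd45a, which promotes arrest and repair after DNA damage, had few counts in every library, at 1.28, 0.903, 1.74 and 2.02 CPM in control replicates 1 to 4 and 2.49, 2.68, 1.60 and 3.002 CPM in tranilast replicates 1 to 4. Its groups overlapped, its log2 fold change was 0.72 (SE 0.283), and its call was lost when any of 5 single libraries was left out (control replicates 1 and 2, tranilast replicates 1, 2 and 4). Sesn1, a sestrin that restrains mTORC1, went from 28.9 ± 2.25 to 31.1 ± 2.01 CPM with overlapping groups and a log2 fold change of 0.10 (SE 0.0712), which did not pass.

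Of the 11 genes of cell death, 10 could be tested and 9 rose (against 28.2% of all tested genes), with a median log2 fold change of 0.72. Phlda3 (ENSMUSG00000041801, chromosome 1, 135766119 to 135769136), which competes with Akt for membrane lipids and so restrains survival signals, stood at 3.63, 3.33, 4.08 and 5.03 CPM in control replicates 1 to 4 and 26.1, 30.1, 28.9 and 30.9 CPM in tranilast replicates 1 to 4. Bbc3 (ENSMUSG00000002083, chromosome 7, 16308393 to 16318205), which encodes the BH3-only protein PUMA, stood at 13.4, 13.4, 11.8 and 11.3 CPM in control replicates 1 to 4 and 38.8, 41.04, 38.5 and 45.7 CPM in tranilast replicates 1 to 4. Both were separated by far more than the spread within either group, at 7.21-fold for Phlda3 (log2 fold change 2.85, SE 0.114) and 3.29-fold for Bbc3 (log2 fold change 1.72, SE 0.0815). Pmaip1, which encodes the other classical BH3-only target, NOXA, stood at 32.5, 30.7, 30.1 and 30.6 CPM in control replicates 1 to 4 and 49.7, 47.9, 51.5 and 54.8 CPM in tranilast replicates 1 to 4, a log2 fold change of 0.72 (SE 0.0562).

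The 3 receptors of the tumour necrosis factor receptor family were each at 7.02 CPM or less in every control library and higher with tranilast. Eda2r, a receptor for an ectodysplasin isoform, stood at 1.35, 0.903, 1.20 and 1.05 CPM in control replicates 1 to 4 and 6.32, 4.49, 3.27 and 4.44 CPM in tranilast replicates 1 to 4. Tnfrsf10b, the mouse TRAIL receptor, stood at 4.05, 7.02, 5.15 and 4.54 CPM in control replicates 1 to 4 and 13.7, 16.1, 14.7 and 12.99 CPM in tranilast replicates 1 to 4. Fas, the receptor for Fas ligand, stood at 2.49, 3.82, 3.54 and 2.86 CPM in control replicates 1 to 4 and 5.04, 4.85, 6.23 and 4.96 CPM in tranilast replicates 1 to 4. In none of the 3 did the groups overlap, and the log2 fold changes were 2.04 (SE 0.249) for Eda2r (1.34 on log2 FPKM plus 0.1 and 0.61 on log2 FPKM plus 1), 1.46 (SE 0.145) for Tnfrsf10b and 0.72 (SE 0.180) for Fas. The larger standard errors here than for Bbc3 or Pmaip1 go with their lower counts.

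The other death genes had smaller fold changes, all under 0.5 on the log2 scale. Bax, the pore-forming effector, stood at 107, 117, 116 and 107 CPM in control replicates 1 to 4 and 121, 125, 128 and 127 CPM in tranilast replicates 1 to 4. Its groups did not overlap and its log2 fold change was 0.17 (SE 0.0406). Apaf1, the scaffold of the apoptosome, went from 79.7 ± 3.20 to 92.6 ± 2.24 CPM (log2 fold change 0.22, SE 0.0418), and Ei24, a membrane protein of the endoplasmic reticulum, from 78.3 ± 2.50 to 108 ± 3.83 CPM (log2 fold change 0.47, SE 0.0412), both without overlap. Aen, an exonuclease that degrades DNA in dying cells, stood at 78.9 ± 7.11 CPM in the control group and 86.3 ± 4.56 CPM in the tranilast group, with overlap, a log2 fold change of 0.13 (SE 0.0578), and no call. Perp, a membrane protein of cell junctions, had 0, 0, 1 and 1 counts in the control libraries and 0 in all tranilast libraries, so both groups were under the limit of 3 counts and no fold is given.

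All 5 genes of DNA repair and nucleotide supply rose (against 28.2% of all tested genes), with a median log2 fold change of 0.55. Their groups did not overlap, where 24.5% of all tested genes were higher without overlap. Ercc5, the endonuclease XPG of nucleotide excision repair, stood at 21.4, 18.9, 20.5 and 22.2 CPM in control replicates 1 to 4 and 42.8, 38.1, 46.6 and 39.5 CPM in tranilast replicates 1 to 4, a 2.01-fold difference (log2 fold change 1.01, SE 0.0750). Polk, a DNA polymerase that copies past lesions, went from 27.5 ± 1.23 to 44.9 ± 2.39 CPM (log2 fold change 0.71, SE 0.0594). Ddb2 and Xpc recognise damage for excision repair, and both had smaller fold changes than Ercc5. Ddb2 stood at 5.83, 7.43, 7.35 and 7.05 CPM in control replicates 1 to 4 and 9.59, 9.41, 12.1 and 9.59 CPM in tranilast replicates 1 to 4, a log2 fold change of 0.55 (SE 0.129). Xpc went from 16.6 ± 0.744 to 22.3 ± 1.11 CPM, a log2 fold change of 0.42 (SE 0.0766). Rrm2b, the p53-inducible subunit of ribonucleotide reductase, stood at 20.8, 20.4, 20.99 and 19.3 CPM in control replicates 1 to 4 and 29.8, 29.97, 22.4 and 27.3 CPM in tranilast replicates 1 to 4. Its tranilast replicate 3 was close to the control range, and its log2 fold change was 0.43 (SE 0.0867).

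Among the 3 other targets, 2 rose (against 28.2% of all tested genes). Dcxr, a reductase of sugars and dicarbonyls, stood at 3.63, 4.59, 4.61 and 4.47 CPM in control replicates 1 to 4 and 13.4, 12.2, 11.2 and 12.4 CPM in tranilast replicates 1 to 4, a 2.84-fold difference (log2 fold change 1.51, SE 0.126). Slc19a2, a thiamine transporter, stood at 57.9, 51.7, 49.3 and 55.1 CPM in control replicates 1 to 4 and 117, 122, 115 and 121 CPM in tranilast replicates 1 to 4, with a log2 fold change of 1.15 (SE 0.0487). Neither gene had overlapping groups. Dyrk3, a kinase that controls the dissolution of stress granules, stood at 45.7, 45.3, 43.3 and 47.1 CPM in control replicates 1 to 4 and 40.7, 44.7, 45.4 and 42.7 CPM in tranilast replicates 1 to 4, with overlap and a log2 fold change of -0.06 (SE 0.0526) that did not pass and that turned positive under 4 other scalings.

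Levels between genes were compared on the authors' FPKM values, which account for transcript length. Cdkn1a had the highest mean level of the members in both groups, at 195 ± 11.8 FPKM in the control group and 268 ± 12.7 FPKM in the tranilast group. Trp53 was next, at 172 ± 8.91 FPKM in the control group and 163 ± 2.36 FPKM in the tranilast group, followed by Bax, at 119 ± 5.58 FPKM in the control group and 144 ± 3.73 FPKM in the tranilast group. These 3 genes held ranks 325, 367 and 575 of the 10770 tested genes by control FPKM. At the other end, Trp53inp1 had 0.433 ± 0.0610 FPKM in the control group and 14.04 ± 1.08 FPKM in the tranilast group, and moved from place 30 to place 18 in the order of the 32 members. Phlda3 moved from place 26 to place 11, with 2.69 ± 0.498 FPKM in the control group and 21.05 ± 1.59 FPKM in the tranilast group. In level rather than in ratio, the order of the changes was different. Cdkn1a gained 73.1 FPKM, Ccng1 62.6 and Mdm2 33.1, and Trp53inp1, with 13.6, came after Bax, Slc19a2, Phlda3, Bbc3 and Ei24 as well. The FPKM values were used as deposited, without TMM scaling, and the order of these gains depends on the measure. In CPM, which has TMM scaling but no correction for length, Cdkn1a went from 361 to 442. By that measure Ccng1 gained more, from 138 to 339 CPM, and so did Mdm2, from 102 to 192 CPM. Neighbours in the control order were separated beyond their 4 values in 12 of 31 pairs and overlapped in 19, so most adjacent places cannot be told apart.

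**Figure D3:**
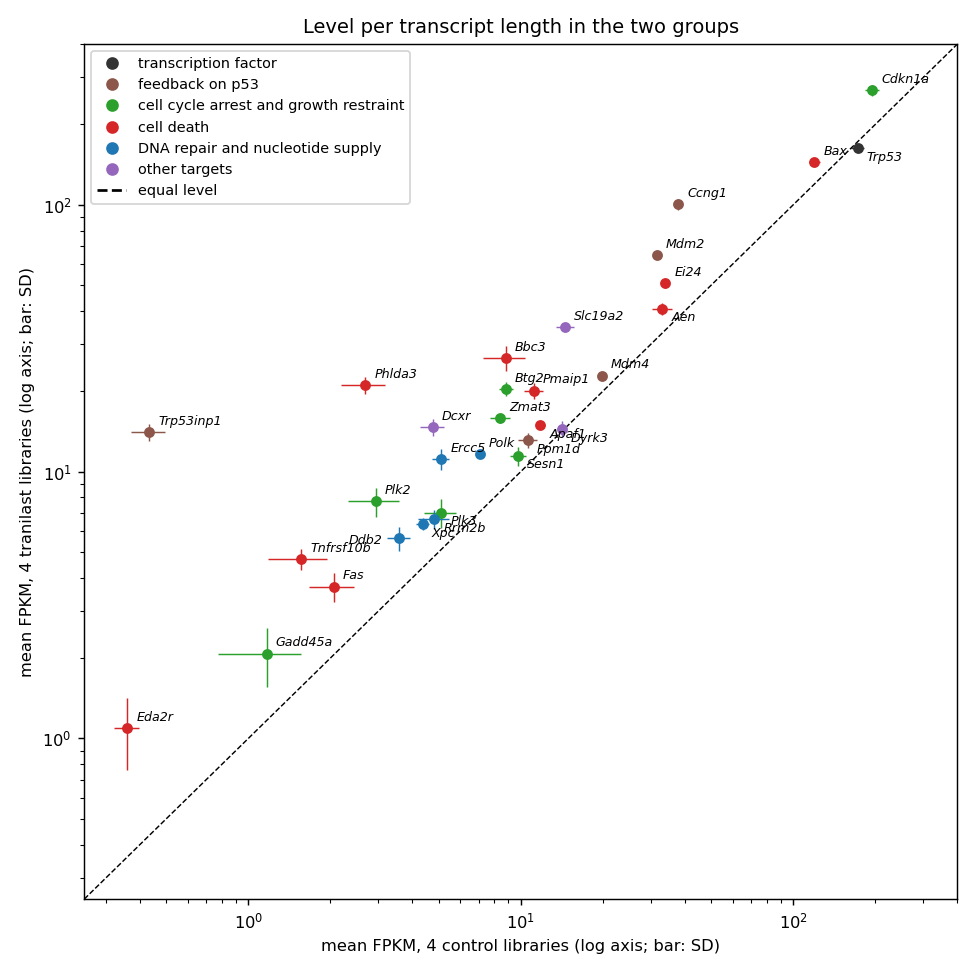
The mean FPKM (fragments per transcript length and library size) of each tested member in the tranilast group against the control group, both on log axes, with bars for the SD over 4 libraries and a diagonal for equal levels. Trp53inp1 (0.433 to 14.0) and Phlda3 (rank 26 to 11 by level) lie farthest above the diagonal, and Cdkn1a, Trp53 and Bax, at 119 FPKM or more in both groups, lie nearer to it.

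Members that were low in the control group had the larger fold changes. Of the 11 members with a log2 fold change of at least 1, 9 were under 10 FPKM in the control group. Spearman's rho between control FPKM and log2 fold change was -0.57 over the 31 members and -0.41 over all 10770 tested genes. Both quantities use the same control libraries, and genes are not independent replicates, so the values are descriptive. The spread between libraries was small for most members. The coefficient of variation of CPM had a median of 6.95% in the control group, from 1.63% for Mdm2 to 33.3% for Gadd45a, and a median of 6.42% in the tranilast group, from 1.81% for Trp53 to 27.2% for Eda2r.

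The other genes of the p53 signaling pathway in the deposited KEGG annotation included genes that rose and genes that fell. This list and the 3 that follow were also chosen with earlier results of these libraries known, so their counts and p-values are descriptive. Of the pathway's 73 genes in the table, 19 are members, and of the other 54, 46 were tested. Of these, 17 rose (37.0%, against 28.2% of all tested genes), 17 fell (37.0%, against 28.8%) and 12 did not pass, and the median log2 fold change was 0.05. On the log2 scale, 2 sestrins rose by more than 1, and 2 mitotic cyclins (Ccnb1 and Ccnb2, described further on) fell by more than 1. Sesn2, which like Sesn1 restrains mTORC1, went from 15.7 ± 2.58 to 59.1 ± 1.94 CPM (log2 fold change 1.91, SE 0.0808, edgeR adjusted p = 8.91e-13). Sesn3 was near the detection limit, with 5, 3, 5 and 0 counts in the control libraries and 17, 18, 21 and 29 in the tranilast libraries (log2 fold change 2.71, SE 0.478, edgeR adjusted p = 0.0001). Its log2 fold change was 1.30 on log2 FPKM plus 0.1 and 0.29 on log2 FPKM plus 1. For comparison, the member Sesn1 had a log2 fold change of 0.10 and did not pass, and the difference between sestrins was not tested.

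The genes that act upstream of p53 moved in both directions and by less than 1 on the log2 scale. Of 35 regulators that are not members, 31 were tested, of which 9 rose (29.0%, against 28.2% of all tested genes), 10 fell (32.3%, against 28.8%) and 12 did not pass, shares close to the background. With library size alone, 17 would count as higher and 7 as lower, where 4613 and 1893 of all 10770 tested genes did. The log2 fold changes ranged from -0.59 (Daxx) to 0.48 (Ppp1r13b). Among the kinases of the DNA damage response, Atm went from 176 ± 9.34 to 199 ± 5.65 CPM (log2 fold change 0.18, SE 0.0385, edgeR adjusted p = 0.00071). Atr had a log2 fold change of 0.14 (SE 0.0438, edgeR adjusted p = 0.0104) and Chek1 of 0.26 (SE 0.0563, edgeR adjusted p = 0.000616), both higher with tranilast. Chek2 had a log2 fold change of 0.13 (SE 0.0756) and did not pass (edgeR adjusted p = 0.152). Cdkn2a, whose product ARF holds Mdm2 away from p53, had 0 counts in all 8 libraries, and so had the p53 relative Trp63. Trp73 had at most 3 counts in a library.

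A further list of 42 p53 targets outside the members also included genes of both directions. Of the 39 in the table, 33 were tested, 17 rose (51.5%, against 28.2% of all tested genes), 7 fell (21.2%, against 28.8%) and 9 did not pass, and the median log2 fold change was 0.23. Epha2, an ephrin receptor kinase, went from 5.80 ± 1.13 to 33.4 ± 3.37 CPM (log2 fold change 2.53, SE 0.115, edgeR adjusted p = 2.44e-12). Ak1, an adenylate kinase, went from 2.03 ± 0.822 to 5.06 ± 0.862 CPM (log2 fold change 1.32, SE 0.249, edgeR adjusted p = 0.0002). With Sesn2, these were the genes of that list that rose by at least 1 on the log2 scale.

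p53 also lowers cell cycle genes indirectly, through p21 and the DREAM repressor complex. Of 18 such genes, all 18 passed (against 57% of all tested genes), 15 as lower and 3 as higher, and the median log2 fold change was -0.92. Nothing is read from that share, since the list was chosen with this contrast known. With library size alone or FPKM, 13 passed as lower and 3 as higher, and Mcm5 turned positive. Of all 10770 tested genes, 1893 passed as lower and 4613 as higher with library size alone. With log2 FPKM plus 1, 1660 of them passed as lower and 3958 as higher. Those that fell furthest act in mitosis. Plk1, the polo-like kinase of mitotic entry, fell from 147 ± 9.04 to 24.6 ± 0.634 CPM (log2 fold change -2.58, SE 0.0519, edgeR adjusted p = 7.84e-17). Ccnb1 and Ccnb2, the B-type cyclins, fell from 173 ± 3.56 to 44.7 ± 2.68 CPM (log2 fold change -1.95, SE 0.0440, edgeR adjusted p = 3.03e-16) and from 94.8 ± 6.22 to 20.1 ± 1.69 CPM (log2 fold change -2.23, SE 0.0640, edgeR adjusted p = 3.68e-15). Cdc20 (-1.98), Cdc25c (-1.79), Kif23 (-1.28), Ccna2 (-1.25) and Birc5 (-1.07) also fell by at least 1 on the log2 scale. Among those that rose were E2f1 (0.62) and Ccne2 (0.43), which act at entry to DNA synthesis. The DREAM genes and the members share the same 8 libraries, so their opposite directions are 2 readings of 1 experiment.

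**Figure D4:**
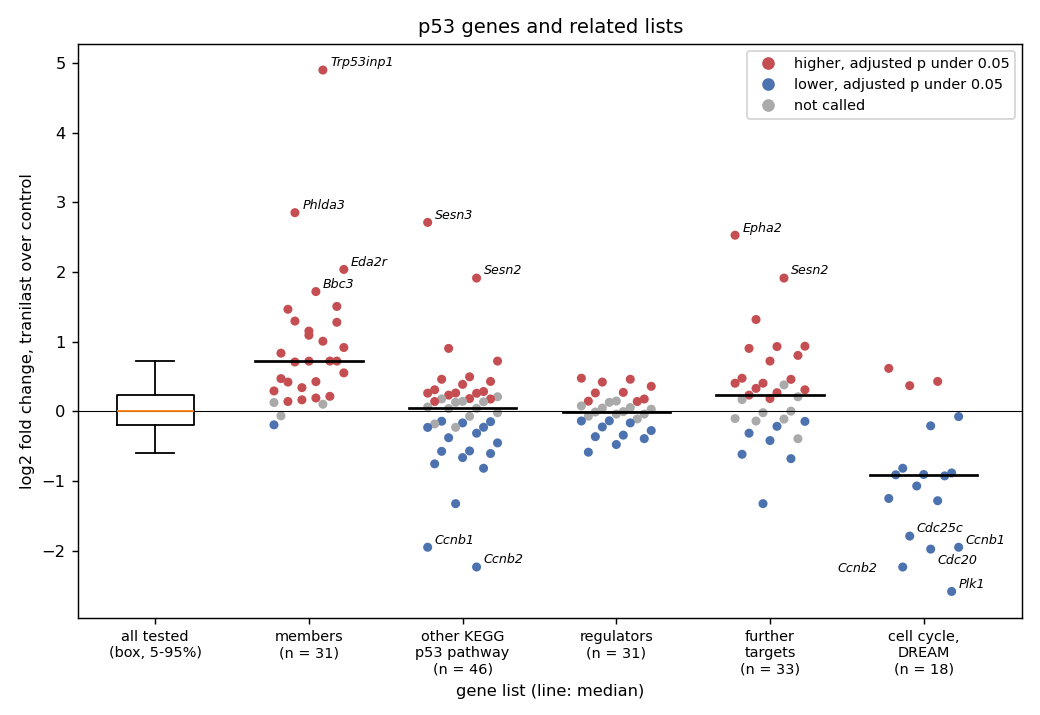
The log2 fold change (tranilast over control) of each tested gene in 5 lists, 1 point per gene, with a line at each list's median and a box for all tested genes (whiskers at 5% and 95%). Red and blue points passed as higher and lower, and grey points did not pass. The members lie mostly above 0 (median 0.72), the other pathway genes (0.05) and the regulators spread around it, the further targets have a median of 0.23, and the DREAM genes lie mostly below it (-0.92).

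How libraries are scaled shifted all genes together. With TMM, 49.5% of the 6143 genes that passed were higher with tranilast. The share was 62.6% with upper-quartile scaling, 70.9% with library size alone and 70.5% with FPKM plus 1, and the median log2 fold change of all tested genes moved from 0.01 to 0.08, 0.12 and 0.10. Several small differences moved by over 1.5 times. With library size alone the log2 fold change of Bax was 0.28, of Mdm4 0.26, of Apaf1 0.33 and of Ppm1d 0.31, and with FPKM plus 1 that of Cdkn1a was 0.46. Between 28 and 29 members passed under these 4 scalings, and Trp53 and Dyrk3 were the members whose call or direction for lower values depended on the choice.

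**Figure D5:**
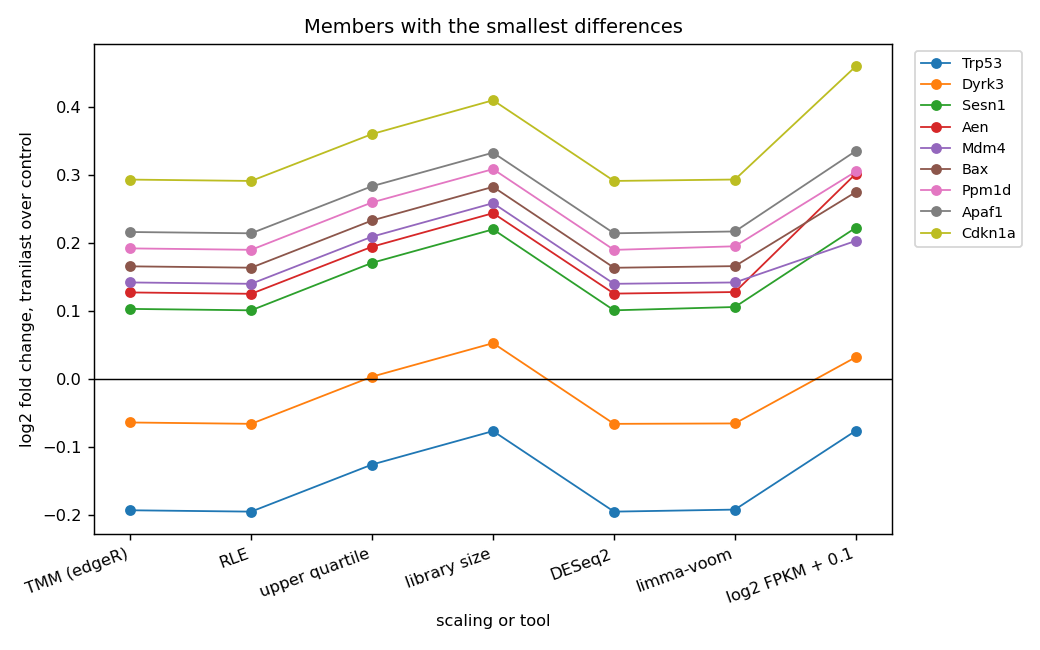
The log2 fold change (tranilast over control) of 9 members with small differences, 1 line per gene, under 7 scalings or tools. All 9 lines rise with upper-quartile scaling, library size alone and FPKM, Dyrk3 crosses 0, and Trp53 stays below 0.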

How the data were processed

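The authors extracted RNA with TRIzol, made poly-A paired-end libraries and sequenced them on an Illumina instrument; aligner, counter and genome build are not given in the sources used here. The deposited table holds estimated counts and FPKM per gene, made by the authors. In each library 92.7% to 93.9% of the estimated counts were whole numbers, counts of 0 included. Estimated counts were rounded, genes were filtered with filterByExpr (10770 of 22063 kept), and tranilast was compared with control using TMM and the quasi-likelihood test of edgeR 4.0.16 in R 4.3.3, with Benjamini-Hochberg adjustment over 10770 genes and a threshold of 0.05. The common biological coefficient of variation was 5.09%. Tested on simulated data of 10713 genes, 200 of them changed by 1 on the log2 scale, the fit recovered 94.5% and made 19 false calls. The simulation held no smaller change and far fewer changed genes than the 57% that passed here. It therefore does not gauge calls of small differences.

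Groups came from the sample titles. Members and gene lists were chosen with earlier results of these data known. Text names all members, and genes of the other lists that passed with a log2 fold change of 1 or more in either direction, at most 10 per list and direction, and 7 set regulators (Cdkn2a, Trp63, Trp73, Atm, Atr, Chek1 and Chek2); Daxx, Ppp1r13b, E2f1 and Ccne2 were named after their values were seen. Some genes that this rule covers are not reported here. Gene positions come from GENCODE M21 (GRCm38), matched by Ensembl identifier for all 32 members, and promoter windows from RefSeq. Alternatives were other scalings and filters, DESeq2 1.42.0, limma-voom (limma 3.58.1), limma on log2(FPKM + 1) and log2(FPKM + 0.1), a replicate block, leaving out each library, an adjusted p under 0.01, and an adjusted p under 0.05 with a log2 fold change beyond 1.5 in either direction.

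Within a group, library pairs differed beyond sampling noise. Each library was counted as 1 replicate, although this difference does not show that the libraries came from separate mice. Limits for counts of 0 cover counting error only.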

Additional observations from a re-analysis of the deposited data

Results flagged for a closer look

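In 5 of the 96 groups of 4 libraries examined (48 genes, 2 groups each), 1 library stood apart from the other 3 by Dixon's criterion, which is about what chance gives (1 in 20, or 4.8 groups). In the tranilast group, replicate 3 had the highest Ddb2 level, 12.1 CPM against 9.41 to 9.59 in the others. The same library had the highest Fas level, 6.23 CPM against 4.85 to 5.04. In the control group, replicate 4 had the highest Zmat3 level, 70.1 CPM against 62.4 to 63.7. Control replicate 1 had the lowest Dcxr level, 3.63 CPM against 4.47 to 4.61, and the highest Epha2 level, 7.47 CPM against 5.09 to 5.49. In all 5 genes the tranilast and control values remained apart with that library included.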

How the results depend on the processing

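Dyrk3, at -0.06, turned positive under 4 scalings, at 0.00336 with upper-quartile factors, 0.0526 with library size alone, 0.0303 with log2 FPKM plus 1 and 0.0321 with log2 FPKM plus 0.1. No member passed as lower (count 0) with library size alone, FPKM plus 1 or FPKM plus 0.1, where Trp53 kept its direction. Requiring a change of 1.5 or more on the log2 scale as well left 5 members (5 higher, 0 lower), 4 other pathway genes, 0 regulators, 2 further targets, 5 DREAM genes and 120 of all genes. Leaving out 1 library at a time gave 25 to 29 members passing (24 to 28 higher, 1 lower), 32 to 34 other pathway genes, 18 to 21 regulators, 22 to 25 further targets, 17 to 18 DREAM genes and 5694 to 5909 of all genes, and the members whose calls changed were Ppm1d, Plk3, Gadd45a and Aen. Aen, at 0.13, also passed with upper-quartile factors, library size alone, FPKM or no filter, Sesn1 with library size alone or FPKM, and Chek2 with upper-quartile factors (0.20) or library size alone (0.25).

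Deviations of same-numbered libraries correlated at -0.044, -0.054, 0.014 and 0.132, within the -0.195 to 0.159 of libraries with different numbers. With 4 libraries per group, these values cannot show whether same-numbered libraries shared a batch. With the replicate block, 28 members passed (27 higher, 1 lower), with 34 other pathway genes, 20 regulators, 24 further targets, 18 DREAM genes and 6009 of all genes. Under the block Gadd45a was lost and Aen passed. Low counts limit Sesn3, Eda2r and Gadd45a, among others, and the part of cell composition in the differences was not tested.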
